A study of Mus musculus with 59 samples.

Results

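The mitosis and kinetochore genes described here are 56 genes whose products build the kinetochore, start mitosis, move and separate the chromosomes, and divide the cell. They were taken as a group because mitotic genes led the response of mouse lung to the lowest dose of benzo(b)fluoranthene (BbF), a polycyclic aromatic hydrocarbon. They were thus chosen by the measured log2 difference between low-dose and vehicle lung, and that difference is given as a description, with counts of members but no p-value. All 56 were represented on the array, by 76 probes matched through their RefSeq accessions, among 37163 genes or transcripts in all. For 17 members there were several probes, of which the one of highest mean intensity over the 59 arrays stood for the gene.

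Adult male Muta™Mouse of about 16 weeks, a strain in which every group, vehicle included, carries the same lacZ reporter transgene for mutation assays, were gavaged daily for 28 days. The vehicle mice (mice 1 to 5) had olive oil only, and the other groups of 5 had BbF in olive oil at 25 (low, mice 6 to 10), 50 (medium, mice 11 to 15) or 100 mg/kg-bw/day (high, mice 16 to 20). Lung, liver and forestomach were taken 72 h after the final dose and hybridized one sample per array, with no lung array analysed here for low-dose mouse 7. The sample titles and the treatment description name BbF while the exposure tags and the series' design text name benz(a)anthracene, and the compound is called BbF here because the doses are those stated for BbF. A value is the log2 ratio of tissue RNA (Cy5) to a reference RNA pooled from 11 mouse cell lines (Cy3), so levels of different genes cannot be set against each other, and a dye effect is common to all dose groups. A gene was counted as a differentially expressed gene (DEG) when limma's adjusted p over all 55681 probes was at most 0.05 and the change was at least 1.5-fold.

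The kinetochore is the protein plate assembled on centromeric chromatin at mitosis, and the NDC80 complex (Ndc80, Nuf2, Spc24 and Spc25) is its main contact with spindle microtubules. Cyclins A and B with Cdk1 drive entry into mitosis, Aurora and Polo kinases and the chromosomal passenger complex correct attachments, and the anaphase-promoting complex with Cdc20 ends mitosis. These genes are transcribed late in the cell cycle, mostly through promoters that carry a cell cycle genes homology region (CHR) and CCAAT boxes, where the DREAM complex holds them down in resting cells and B-Myb and FoxM1 raise them in dividing cells. Lung and liver of adult mice hold few dividing cells, whereas the basal layer of the forestomach epithelium renews throughout life. In whole tissue, fewer dividing cells and less RNA per dividing cell cannot be told apart.

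The promoter is shown because it is a feature that the choice of genes did not use. RefSeq windows from 250 bases before to 50 bases after the transcription start (GRCm38.p6) were held for 45 of the 56 members and for 27025 genes in all, and a motif was counted when its letters lay on either strand of any window of a gene. The main CHR form TTTGAA was present in 33 of the 45 members (73.3%), against 20.2% of all genes. The second form TTTAAA was present in 10 members (22.2%) against 14.9% of genes, TTCGAA in 3 (6.67%) against 1.8%, and CTTGAA in 6 (13.3%) against 14.8%. At least one of these 4 forms, which do not contain each other, was present in 40 members (88.9%) and in 40.8% of genes. CCAAT was present in 35 members (77.8%) against 41.1%, 2 or more CCAAT in 24 (53.3%) against 13.3%, and a CHR form together with CCAAT in one window in 33 (73.3%) against 16.5%. E2F site letters (TTTCCCGC, TTTGGCGC or TTTCGCGC) were present in 3 members (6.67%) against 2.12%. No window was held for Incenp, Tpx2, Pbk, Smc4, Kif20a, Foxm1, Dlgap5, Aurkb, Ccna2, Spc24 and Pimreg. A match is a description of letters and not a site of binding. The 250 bases before the start are printed 5′ to 3′ on the gene's strand for the 4 genes of deepest fall between medium-dose and high-dose lung, among the DEGs of that comparison with exactly 1 window, with CHR forms and CCAAT (or its complement ATTGG) in capitals: Spc25 at chr2:69206214-69206463 (minus strand), Birc5 at chr11:117848987-117849236 (plus strand), Mki67 at chr7:135716380-135716629 (minus strand) and Ckap2 at chr8:22185820-22186069 (minus strand).
Spc25: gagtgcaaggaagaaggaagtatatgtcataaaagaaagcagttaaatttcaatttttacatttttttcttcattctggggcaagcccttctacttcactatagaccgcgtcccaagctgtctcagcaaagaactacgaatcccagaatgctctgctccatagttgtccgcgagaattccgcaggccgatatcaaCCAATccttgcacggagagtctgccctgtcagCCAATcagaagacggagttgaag
Birc5: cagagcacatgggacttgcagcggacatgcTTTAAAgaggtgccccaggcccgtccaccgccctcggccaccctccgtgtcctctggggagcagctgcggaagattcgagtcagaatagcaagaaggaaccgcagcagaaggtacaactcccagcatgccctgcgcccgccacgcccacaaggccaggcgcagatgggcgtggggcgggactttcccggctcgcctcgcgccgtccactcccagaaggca
Mki67: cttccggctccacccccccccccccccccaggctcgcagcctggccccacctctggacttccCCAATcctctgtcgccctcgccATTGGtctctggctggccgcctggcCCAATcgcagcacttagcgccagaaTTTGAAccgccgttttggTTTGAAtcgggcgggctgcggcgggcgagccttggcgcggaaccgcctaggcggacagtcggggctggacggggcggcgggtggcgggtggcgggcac
Ckap2: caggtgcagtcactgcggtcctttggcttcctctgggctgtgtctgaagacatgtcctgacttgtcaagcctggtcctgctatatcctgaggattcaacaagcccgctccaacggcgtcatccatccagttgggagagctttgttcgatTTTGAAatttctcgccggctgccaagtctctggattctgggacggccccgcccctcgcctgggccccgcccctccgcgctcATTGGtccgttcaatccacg
In Spc25 the capitals are CCAAT at 55 to 51 and at 23 to 19 bases before the start, and its 1 CHR form is not within the printed bases. In Birc5 they are TTTAAA at 220 to 215 bases before the start. Mki67 carried TTTGAA at 116 to 111 and at 98 to 93, CCAAT at 188 to 184 and at 141 to 137, and ATTGG at 166 to 162. Ckap2 carried TTTGAA at 101 to 96 and ATTGG at 20 to 16.

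Some arrays stood apart from the rest. The lung array of low-dose mouse 6 had a mean of forestomach identity genes of 4.26 against −0.81 to −0.26 on the other 18 lung arrays, while its mean over the 56 members (−1.94) lay within the low-dose range. In vehicle mice the members lay higher in forestomach than in lung, and the part of forestomach signal in this array's member values was not tested. On the third of the 3 liver slides, which held 8 arrays (vehicle mouse 5, 2 low, 2 medium and 3 high), at most 12.9% of probes were well above background, against at least 37.1% on the other liver slides. On those 8 arrays 3 to 19 members were above background, against 29 to 51 on the other liver arrays. In lung, 44.8% to 68.8% of probes were above background, the highest on the array of medium-dose mouse 13. Sftpc, the surfactant protein of alveolar type II cells, was at 6.84 to 7.72 in lung and at most 0.69 elsewhere. Other identity genes were less clean in forestomach, where Scgb1a1 of airway club cells was at 4.30 to 5.46 (7.84 to 8.41 in lung) and the liver genes Alb, Ttr and Apoa2 had medians of 1.97, 3.56 and 0.20 with highest values of 4.79, 5.84 and 3.18, all 3 on the array of medium-dose mouse 12. Its mean over the members (−1.73) lay within the forestomach range, and the part of such signal in the members' forestomach values was not tested. Liver results are given with and without the third slide.

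In lung the members were higher at the low dose, less so at the medium dose, and near the vehicle level at the high dose, although still above it (median 0.38) when each array was centred on its median in place of loess. The mean of the 56 log2 ratios was −2.93, −2.92, −2.73, −2.66 and −2.87 in vehicle mice 1 to 5 and −1.94, −2.06, −2.02 and −1.92 in low-dose mice 6, 8, 9 and 10. It was −2.23, −2.10, −2.22, −2.34 and −2.43 in medium-dose mice 11 to 15 and −2.92, −2.88, −2.33, −2.66 and −2.93 in high-dose mice 16 to 20. Every low-dose mouse lay above every medium-dose mouse and every medium-dose mouse above every vehicle mouse, while the high-dose mice overlapped both the vehicle and the medium range through mouse 18. The group means were −2.82 ± 0.12 (SD, n = 5) at vehicle, −1.99 ± 0.06 (n = 4) at low, −2.26 ± 0.13 (n = 5) at medium and −2.74 ± 0.26 (n = 5) at high dose. The number of members above background per lung array was 39 to 48 in vehicle, 51 to 52 in low-dose, 50 to 52 in medium-dose and 48 to 52 in high-dose mice.

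**Figure D1:**
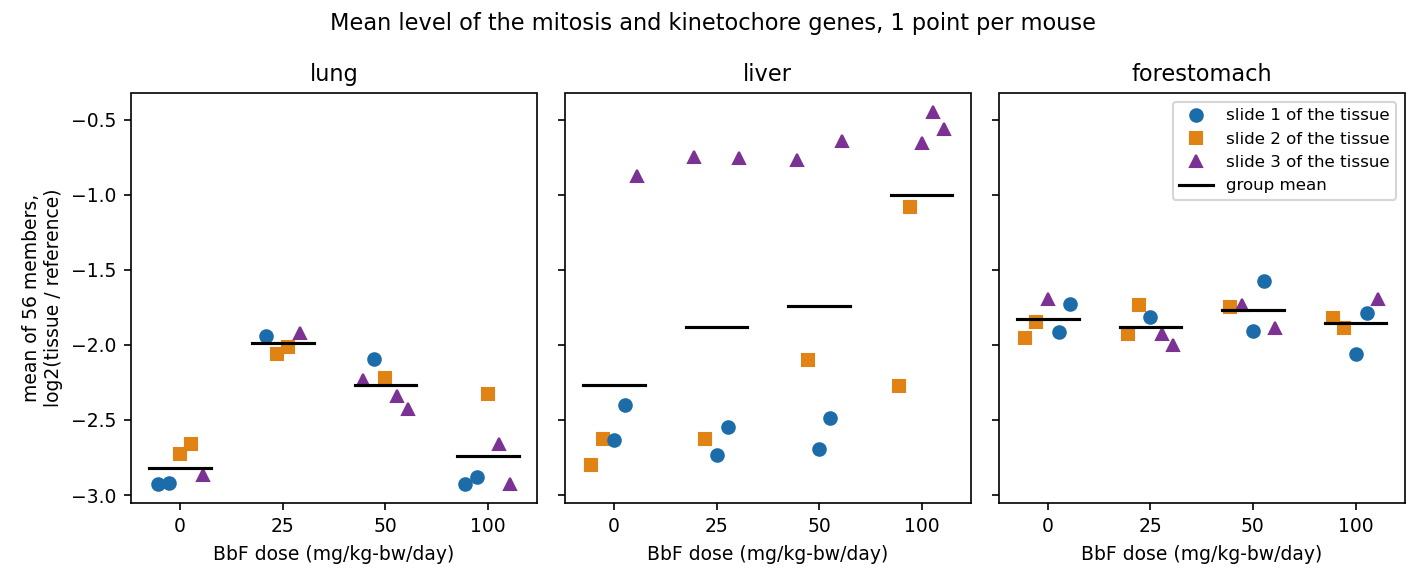
Mean log2 ratio (tissue over reference RNA) of the 56 members on each array, by tissue and dose, with each point a mouse, its shape and colour the slide, and horizontal lines the group means. In lung the low-dose mice lie at −2.06 to −1.92 above the vehicle mice at −2.93 to −2.66, and in liver the arrays of the third slide lie at −0.87 to −0.45 whatever the dose.

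At the low dose 35 of the 56 members lay past the DEG thresholds upward, where 0.409% of all genes did. Nothing is read from this or any other low-dose count, overlap between mice included, because this contrast chose the genes. The changes ran from −0.04 to 2.38 with a median of 0.78, and 53 lay above 0 (50.3% of all genes). In 43 members every low-dose mouse lay above every vehicle mouse (2.64% of all genes). At the medium dose 20 members were DEGs, all higher (0.455% of all genes higher), with a median change of 0.47, a range of −0.11 to 2.12 and 50 above 0 (49.5% of all genes). Among the 20, the call was lost in 8 of 18 alternative settings for Cdc20, 5 for Ect2, 3 for Cdca3 and 1 for Top2a. In 30 members every medium-dose mouse lay above every vehicle mouse (2.14% of all genes). At the high dose 2 members, Spc25 and Mki67, were DEGs (1.25% of all genes higher), the median was 0.03, the range −0.35 to 0.99, and 31 lay above 0 (49.1% of all genes). Spc25 kept its high-dose call in all 18 alternative settings tried, whereas Mki67 lost it in 8 of 18, with an adjusted p of up to 0.128 (without vehicle mouse 3). Spc25 was the member in which every high-dose mouse lay above every vehicle mouse (4.25% of all genes). The medium-dose and high-dose comparisons share the vehicle lung arrays with the low-dose comparison, so they are not independent of the choice of genes. The step down from the low to the medium dose is likewise not read as a result, since the low-dose change chose the genes. A linear trend over dose gave no DEG among the members (1.48% of all genes), with a median of −0.14, turned to 0.21 by median centring, and 14 above 0 (48.6% of all genes).

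**Figure D2:**
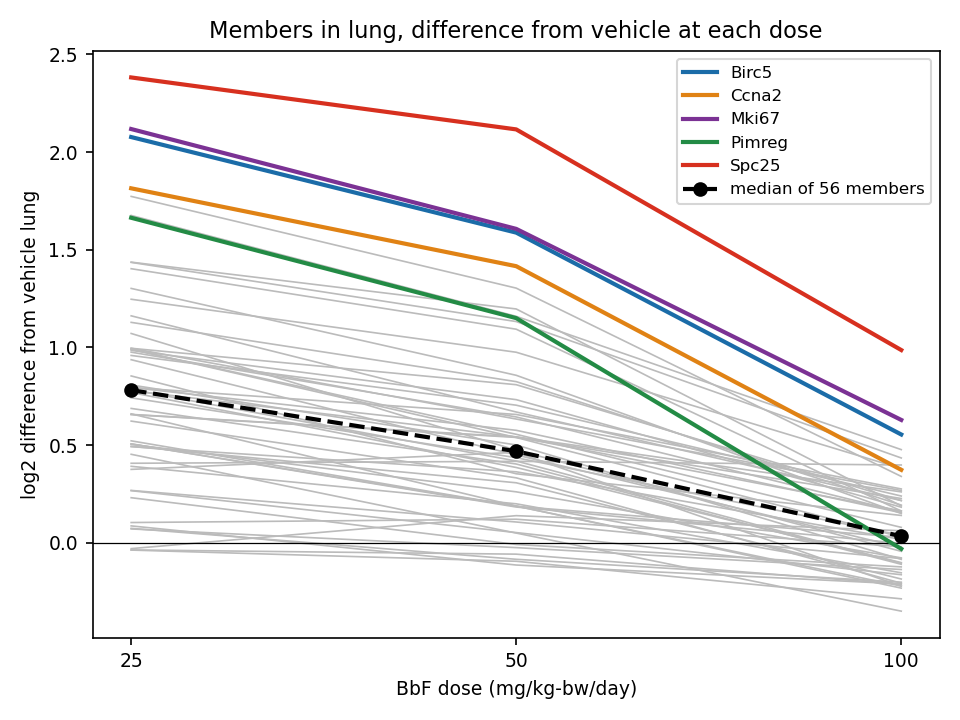
Log2 change from vehicle in lung of each of the 56 members at the low, medium and high dose, with 1 line per gene, 5 genes in colour and the median of the members dashed. The median runs from 0.78 through 0.47 to 0.03 (0.93, 0.64 and 0.38 with median centring).

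By role, DEGs higher at the medium and high dose numbered 1 and 1 of the 4 NDC80 genes, 2 and 0 of the 4 other centromere and kinetochore genes, 2 and 0 of the 4 cyclin and Cdk1 genes, and 2 and 0 of the 4 chromosomal passenger genes. They numbered 0 and 0 of the 3 checkpoint genes, 1 and 0 of the 5 other kinases, 2 and 0 of the 5 anaphase genes, and 2 and 0 of the 6 kinesins. Of the 8 spindle genes 4 and 0 were DEGs, of the 4 cytokinesis genes 1 and 0, of the 6 chromosome structure genes 2 and 1, and of the 3 transcription factor and other genes 1 and 0. Of all genes 0.455% and 1.25% were DEGs higher at these doses. Both comparisons share the vehicle lung arrays with the contrast that chose the genes.

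The fall from the medium to the high dose in lung compares groups that the choice of genes did not use. All 56 members were lower at the high than at the medium dose (51% of all genes had a change above 0), with a median of −0.46 and a range of −1.18 to −0.02. Median centring put 7 members above 0, and 61.3% of all genes. Aurkb, Cenpf, Ttk and Ncapg are counted among the 56, although they were above background on no lung array and their changes give no level. Of the 56, 11 were DEGs, all lower (0.0888% of all genes were DEGs lower), and 43 had an unadjusted p of at most 0.05 (10% of all genes). Within dose groups the members varied together in lung, with a median correlation of 0.81 with the mean of the others. Counts of members are therefore not counts of independent results. In 8 members every high-dose mouse lay below every medium-dose mouse (0.823% of all genes). The 11 were Pimreg (−1.18 ± 0.15 SE, adjusted p = 0.00156), Spc25 (−1.13 ± 0.16, 0.00167), Ccna2 (−1.04 ± 0.15, 0.00193), Birc5 (−1.03 ± 0.19, 0.0207) and Pbk (−1.01 ± 0.16, 0.00578), followed by Mki67, Ckap2, Nusap1, Prc1, Ccnb2 and Kif22, whose changes ran from −0.98 to −0.60. Over 18 alternative settings the call was lost in 10 for Ccnb2, 9 for Kif22, 8 each for Mki67 and Nusap1, and 6 each for Birc5 and Prc1. It was lost in 1 each for Ccna2, Ckap2 and Pbk, and in 0 for Spc25 and Pimreg. The member of least change was Gtse1 (−0.02), a microtubule-bound regulator of p53, which was at 0.41, 0.42 and 0.40 above vehicle at the 3 doses, was a DEG at none and was above background on 2 of 5 vehicle arrays. The promoter letters did not sort the members in one direction from the medium to the high dose. The median change from medium to high was −0.47 with a CHR form (40 genes) and −0.38 without (5 genes), −0.45 with CCAAT (35 genes) and −0.51 without (10 genes), and −0.21 with E2F letters (3 genes) and −0.48 without (42 genes). From vehicle to the medium dose it was lower with each motif, at 0.44 with a CHR form and 0.50 without, 0.44 with CCAAT and 0.47 without, and 0.19 with E2F letters and 0.47 without. The groups of 5 and 3 genes are small, and Pimreg, Ccna2 and Pbk had no window, so nothing is concluded from these medians.

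**Figure D3:**
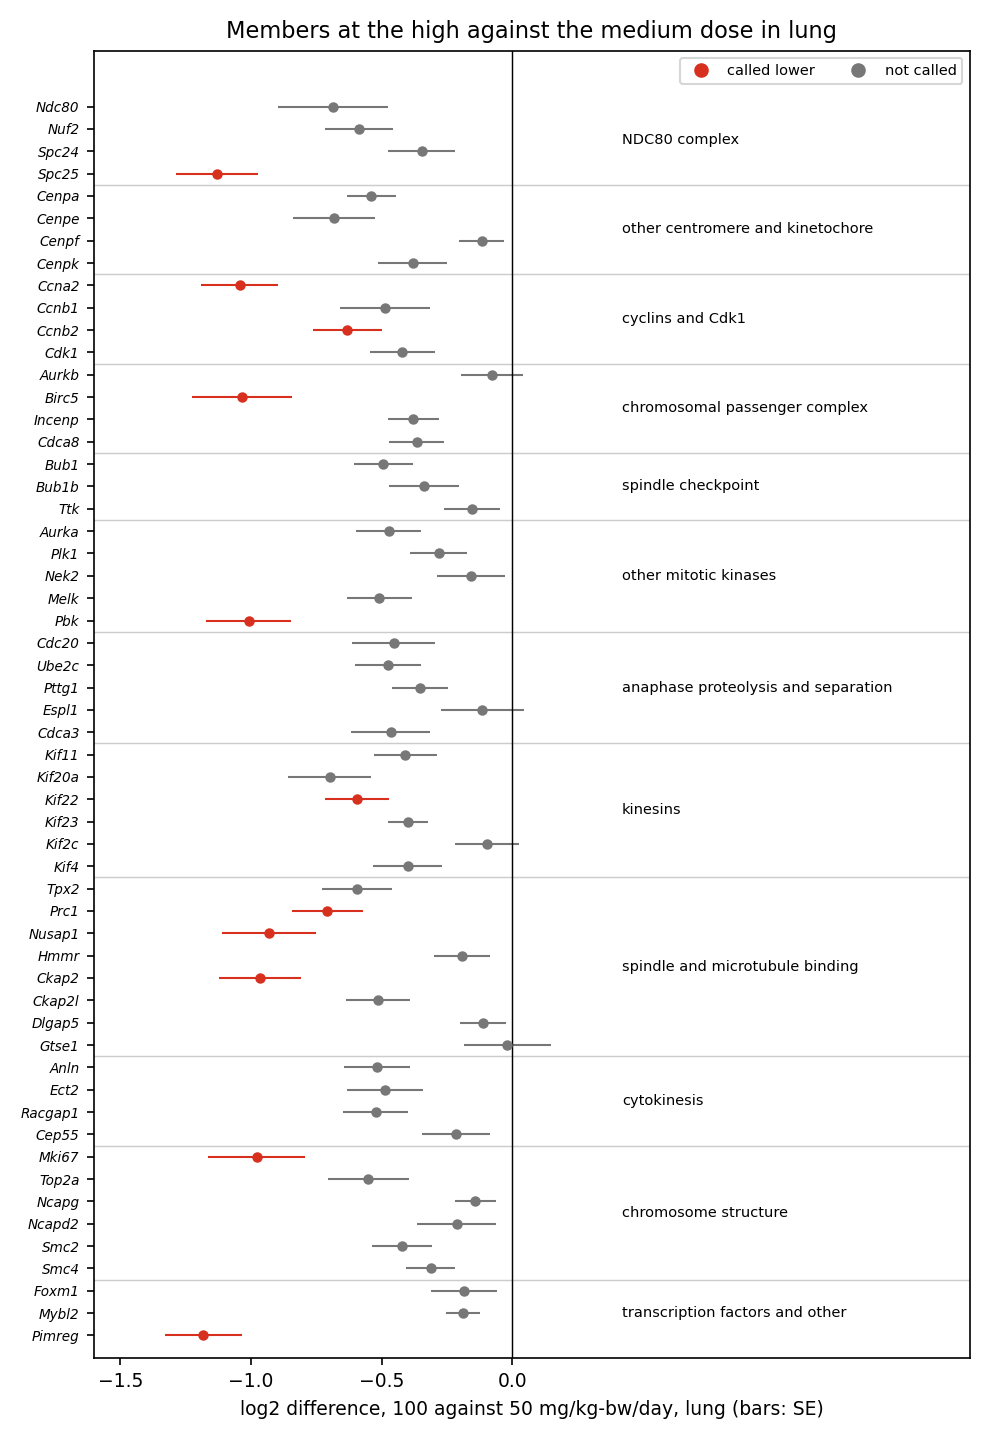
Log2 change between high-dose and medium-dose lung (n = 5 each) for each of the 56 members, with bars of 1 SE. All 56 lie below 0 (7 lie above it with median centring), and the 11 DEGs, in red as called lower, run from −1.18 to −0.60. Aurkb, Cenpf, Ttk and Ncapg were above background on no lung array.

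Each lung slide gave a lower member median at the high than at the medium dose (−0.77, −0.09 and −0.44 on slides 1 to 3), but on slide 2, which held mouse 18, 20 of the 56 members lay above 0. Without mouse 18 there were 26 DEGs, among them all 11 (173 of all 37163 genes), without medium-dose mouse 11 there were 5 (0.135%), and without medium-dose mouse 13 there were 7 (0.188%). With median centring the median fall was −0.24 against 0.04 for all genes, 7 members lay above 0, and only Spc25 (−0.84, adjusted p = 0.048) and Pimreg (−0.91, 0.0215) were DEGs; the same centring gave 17 DEGs at the high dose against vehicle, with a median of 0.38, while 8.16% of all genes were DEGs and 65.6% lay above 0 in that setting.

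Spc25, which with Spc24 forms the inner end of the NDC80 complex that docks on the kinetochore, had the largest low-dose and medium-dose change of all members. Its log2 ratios were −4.30, −3.89, −4.22, −3.78 and −4.20 in vehicle, −1.86, −1.85, −1.73 and −1.35 in low-dose, −1.67, −1.66, −2.15, −2.09 and −2.23 in medium-dose and −3.44, −3.30, −2.66, −2.82 and −3.24 in high-dose lung. The high-dose mice lay between the medium-dose and vehicle mice and overlapped neither. Against vehicle Spc25 was higher by 2.38 at the low dose, by 2.12 ± 0.16 (SE, adjusted p = 5.93e-07) at the medium dose and by 0.99 ± 0.16 (0.000541) at the high dose. It remained a DEG between high and medium dose in each of the 18 alternative settings tried.

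The other NDC80 members changed less, and in vehicle lung Ndc80 was above background on 2 and Nuf2 on 1 of the 5 arrays, so their differences from vehicle are limited by the background. Ndc80 itself, the microtubule-binding subunit, was at −2.40, −2.69, −2.58, −2.53 and −2.43 in vehicle, −2.29, −2.31, −2.16 and −1.84 in low-dose, −2.17, −2.22, −0.93, −2.50 and −2.50 in medium-dose and −2.96, −3.00, −2.81, −2.41 and −2.56 in high-dose lung. The medium-dose group was wide because of mouse 13 (−0.93), and its change of 0.46 ± 0.21 from vehicle had an adjusted p of 0.322. Nuf2, its partner in the microtubule-binding head, was at −2.85, −2.80, −2.55, −2.41 and −2.71 in vehicle, −2.17, −1.83, −2.21, −2.24 and −2.36 in medium-dose and −2.82, −2.78, −2.29, −2.70 and −3.14 in high-dose mice. Its medium-dose values all lay above vehicle (0.50 ± 0.13, adjusted p = 0.0528), and its high-dose values overlapped both groups (−0.59 ± 0.13 from medium, 0.0635). Spc24 changed by 0.49, 0.36 and 0.02 at the 3 doses and by −0.35 from medium to high (0.384).

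Among the cyclins and Cdk1, Ccna2 and Ccnb2 were the DEGs at the medium dose and from medium to high. Ccna2 (cyclin A2) was at −4.22, −4.00, −3.77, −3.54 and −3.93 in vehicle, −2.09, −2.29, −2.09 and −1.83 in low-dose, −2.37, −2.32, −2.47, −2.49 and −2.74 in medium-dose and −3.84, −3.69, −2.93, −3.42 and −3.73 in high-dose lung. Its medium-dose mice lay above all vehicle mice (1.42 ± 0.15, adjusted p = 2.66e-05) and above all high-dose mice, and its high-dose change from vehicle was 0.37. Ccnb2 (cyclin B2) changed by 1.13, 0.82 and 0.19 at the 3 doses, and by −0.63 ± 0.13 from medium to high (0.0439). These last groups did not overlap, but the lowest medium-dose mouse (−2.335) and the highest high-dose mouse (−2.340) lay close. The call from medium to high was lost in 10 of 18 alternative settings, with an adjusted p of up to 0.488 (median centring). Ccnb1 (cyclin B1, the main partner of Cdk1 at mitotic entry) was at −3.79, −4.01, −3.45, −3.38 and −3.82 in vehicle, −3.33, −3.17, −3.01, −3.55 and −3.46 in medium-dose and −4.16, −4.07, −3.06, −3.60 and −4.07 in high-dose mice. These groups overlapped, and the change from medium to high of −0.49 ± 0.17 had an adjusted p of 0.342. Cdk1 was at −2.93, −2.89, −2.58, −2.72 and −3.34 in vehicle, −2.07, −2.20, −2.29 and −2.36 in low-dose, −2.65, −2.65, −2.65, −2.59 and −2.98 in medium-dose and −3.20, −3.08, −2.76, −3.29 and −3.29 in high-dose mice. The medium-dose and high-dose mice overlapped the vehicle mice, of which 2 of 5 were above background. The change from vehicle was 0.66 at the low dose, and the change from medium to high was −0.42 ± 0.12 (0.205).

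Of the chromosomal passenger complex, which corrects faulty attachments and guides cytokinesis, Birc5 (survivin) changed most. It was at −4.56, −4.45, −4.24, −3.88 and −4.35 in vehicle, −2.08, −2.45, −2.21 and −2.14 in low-dose, −2.57, −2.39, −2.75, −2.84 and −3.00 in medium-dose and −4.06, −4.09, −2.84, −3.59 and −4.13 in high-dose lung. Mouse 18 (−2.84) lay within the medium-dose range, while the other high-dose mice lay below it. The medium-dose change was 1.59 ± 0.19 (adjusted p = 0.000153) and the high-dose change 0.55 ± 0.19 (0.0991). Cdca8 (borealin) was a DEG at the medium dose (0.63 ± 0.10, 0.00277) and Incenp, the scaffold, missed the fold threshold (0.54 ± 0.10, 0.006). Aurkb, the kinase of the complex, was above background on no lung array and in the reference on 30 of the 59 arrays, so its ratios near 0 give no level.

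Of the other mitotic kinases, Pbk was at −3.79, −3.62, −3.37, −3.22 and −3.51 in vehicle, −2.01, −2.23, −2.10 and −1.92 in low-dose, −2.33, −2.06, −2.37, −2.22 and −2.54 in medium-dose and −3.82, −3.56, −2.63, −3.12 and −3.45 in high-dose lung. It was a DEG at the medium dose (1.20 ± 0.16, adjusted p = 0.00048) and fell by 1.01 to the high dose, with mouse 18 the closest to the medium-dose mice and no overlap. Plk1, the Polo kinase of mitotic entry and spindle assembly, was at −3.07, −2.98, −2.77, −2.69 and −2.59 in vehicle, −2.14, −2.21, −2.42, −2.36 and −2.25 in medium-dose and −2.83, −2.82, −2.34, −2.31 and −2.48 in high-dose mice. Its medium-dose mice lay above vehicle with a change under 1.5-fold (0.54 ± 0.11, 0.0121), and its high-dose mice overlapped both. Aurka (Aurora A, a centrosome kinase) changed by 0.94, 0.45 and −0.02 at the 3 doses. Of the spindle checkpoint genes, Bub1, Bub1b and Ttk, none was a DEG at any dose or between high and medium, with changes of 0.49, 0.50 and −0.04 at the low dose and of −0.49, −0.34 and −0.15 from medium to high. Ttk was above background on no lung array.

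For the remaining roles the medians are given with the genes named. Mki67, the proliferation antigen that coats mitotic chromosomes, was at −4.28, −4.41, −4.69, −3.95 and −4.40 in vehicle, −2.08, −2.44, −2.30 and −2.09 in low-dose, −2.51, −2.46, −2.76, −2.93 and −3.03 in medium-dose and −4.10, −4.18, −2.99, −3.41 and −3.92 in high-dose lung. Medium-dose mice all lay above vehicle (1.61 ± 0.19, adjusted p = 8.82e-05), and high-dose mice overlapped both vehicle and medium (0.63 ± 0.19 from vehicle, 0.0484). Top2a, the topoisomerase that untangles sister chromatids, was a DEG at the medium dose (0.73 ± 0.15, 0.0165) and not at the high dose (0.18 ± 0.15, 0.608). Over the 6 chromosome structure genes the medians were 0.82, 0.56 and 0.17 at the 3 doses. Pimreg, a mitotic regulator of the metaphase-to-anaphase transition, was at −3.70, −3.67, −3.20, −3.06 and −3.66 in vehicle, −1.86, −1.94, −1.85 and −1.52 in low-dose, −2.13, −2.06, −2.16, −2.47 and −2.71 in medium-dose and −3.52, −3.64, −3.11, −3.48 and −3.70 in high-dose mice. All high-dose mice lay below all medium-dose mice and overlapped the vehicle mice. Foxm1 was at −2.54, −2.77, −2.40, −2.28 and −2.62 in vehicle, −1.93, −2.14, −2.03 and −1.97 in low-dose, −2.48, −2.12, −1.94, −2.55 and −2.61 in medium-dose and −2.61, −2.56, −2.17, −2.56 and −2.73 in high-dose mice. Its medium-dose and high-dose mice overlapped the vehicle mice. Foxm1 and Mybl2 (B-Myb), the transcription factors of this gene group, changed by 0.18 ± 0.13 (0.573) and 0.11 ± 0.07 (0.51) at the medium dose and by −0.19 ± 0.13 (0.742) and −0.19 ± 0.07 (0.339) from medium to high.

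**Figure D4:**
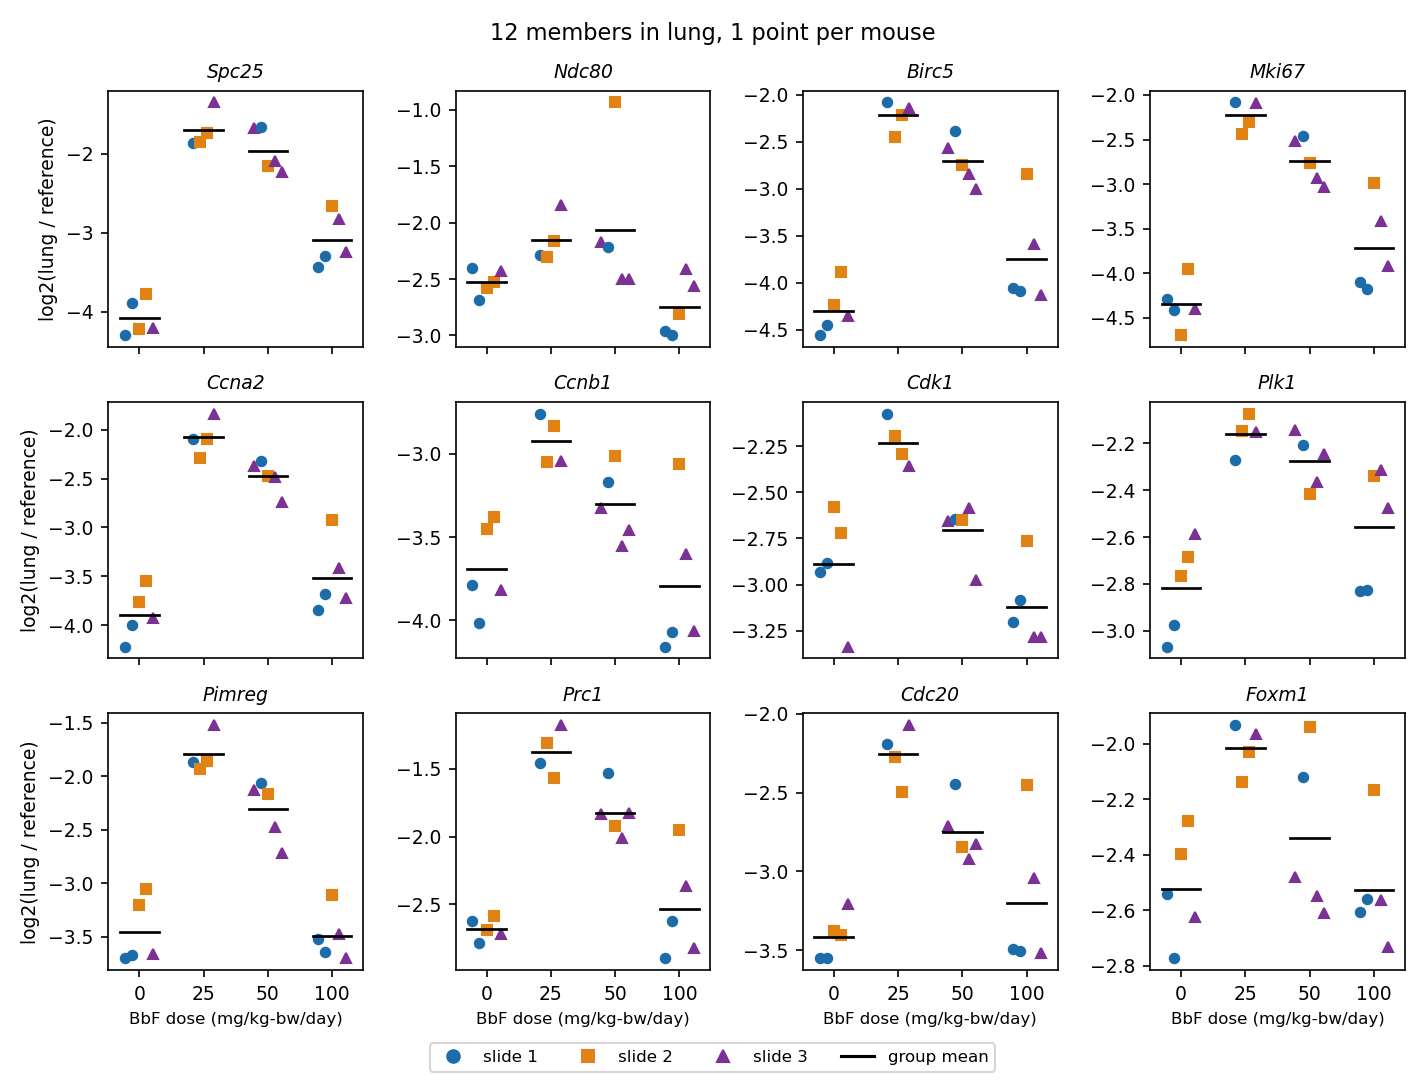
Log2 ratio in lung of 12 members on each array by dose, with each point a mouse, its shape and colour the slide, and horizontal lines the group means. For Spc25 and Pimreg the high-dose mice lie below all medium-dose mice, whereas for Plk1, Ccnb1, Cdk1 and Foxm1 they overlap them.

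The 8 spindle and microtubule-binding genes had medians of 0.84, 0.61 and 0.16 at the low, medium and high dose, and 4 of them (Prc1, Nusap1, Ckap2 and Tpx2) were DEGs at the medium dose. Of these, Prc1, which bundles the central spindle, and Nusap1 and Ckap2, which bind spindle microtubules, were DEGs lower from medium to high (−0.71, −0.93 and −0.96). Ckap2 was at −3.07, −3.24, −2.88, −2.68 and −3.18 in vehicle, −1.21, −1.27, −1.37 and −1.10 in low-dose, −1.59, −1.29, −1.66, −2.00 and −1.99 in medium-dose and −2.82, −2.90, −2.08, −2.56 and −2.99 in high-dose mice, so that medium and high dose did not overlap, and it was above background on 2 of the 5 vehicle arrays. Prc1 was at −2.62, −2.79, −2.69, −2.59 and −2.72 in vehicle, −1.46, −1.31, −1.57 and −1.18 in low-dose, −1.83, −1.53, −1.92, −2.01 and −1.82 in medium-dose and −2.90, −2.62, −1.95, −2.36 and −2.82 in high-dose mice. For Prc1 mouse 18 lay within the medium-dose range and the other high-dose mice below it. The 5 anaphase genes had medians of 0.96, 0.55 and 0.08. Among these Cdc20, the activator of the anaphase-promoting complex, was a DEG at the medium dose (0.67 ± 0.16, adjusted p = 0.033), while Pttg1 (securin) changed by 0.20 there. Cdc20 was at −3.55, −3.55, −3.38, −3.41 and −3.21 in vehicle, −2.19, −2.27, −2.49 and −2.07 in low-dose, −2.71, −2.44, −2.85, −2.92 and −2.83 in medium-dose and −3.50, −3.51, −2.45, −3.04 and −3.52 in high-dose mice, and mouse 18 again lay among the medium-dose mice. The 6 kinesins had medians of 0.63, 0.31 and −0.09. Kif20a and Kif22 were the kinesins that were DEGs at the medium dose (1.13 and 0.98), and Kif22 was a DEG between high and medium dose. The 4 cytokinesis genes had medians of 0.88, 0.45 and −0.07, with Ect2 the DEG at the medium dose (0.64). Of the 4 other centromere and kinetochore genes, Cenpe, the kinetochore motor, and Cenpk were DEGs at the medium dose (1.16 and 0.66). Cenpe was at −4.75, −4.68, −4.71, −4.51 and −4.47 in vehicle, −2.73, −2.98, −3.15 and −2.92 in low-dose, −3.31, −3.33, −3.52, −3.61 and −3.54 in medium-dose and −4.51, −4.54, −3.48, −3.81 and −4.39 in high-dose mice, and mouse 18 was the high-dose mouse within the medium-dose range. By contrast Cenpa, the centromeric histone, was not a DEG there (0.33). Cenpf, Ncapg, Aurkb and Ttk were above background on no lung array. Ckap2l was above background on no vehicle lung array and was at least 1.49-fold higher at the low and at least 1.18-fold higher at the medium dose, the bound being set by the dimmest probes well above background.

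The probes of a gene did not always change alike, as 3 genes chosen after their values were seen show. From medium to high dose the brightest Birc5 probe changed by −1.03 and the others by −0.68 and −0.78. For Cdk1 the values were −0.42, 0.02 and 0.00, so the Cdk1 change rests on its brightest probe. The second Mki67 probe changed by −1.03 against −0.98.

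Genes of the same machinery outside the group, in lists that were also chosen with earlier results known, were counted in the same way. Of 30 other kinetochore and centromere genes, 6, 2 and 0 were DEGs higher at the low, medium and high dose, with medians of 0.36, 0.25 and 0.04. Of all genes 0.409%, 0.455% and 1.25% were DEGs higher at these doses, and 0.0888% were DEGs lower from medium to high. From medium to high 2 were DEGs lower, Sgo1, the shugoshin that guards centromeric cohesion (−0.88 ± 0.15, adjusted p = 0.0082), and Ska1, a partner of the NDC80 complex at microtubules (−0.74 ± 0.11, 0.0029). Of 33 other mitotic genes 16, 11 and 2 were DEGs higher, with medians of 0.68, 0.37 and 0.01. Fbxo5 (Emi1), an inhibitor of the anaphase-promoting complex, was the DEG lower from medium to high (−0.77 ± 0.13, 0.0063). Nothing is read from the low-dose counts, because mitotic genes were picked for leading that contrast. The medium-dose and high-dose counts share its vehicle arrays. Marker lists of other cells were followed in the same arrays. B cell markers had medians of 0.38, 0.81 and 0.47 at the 3 doses, T cell markers 0.10, 0.28 and 0.14, endothelial markers 0.20, 0.44 and 0.74 (Cdh5 and Pecam1 DEGs at the high dose), macrophage markers 0.04, −0.14 and −0.11 (Marco a DEG higher at the high dose), erythroid markers 0.09, 0.02 and 0.07, and neutrophil precursor markers −0.03, 0.00 and −0.03. The part of these cell types in the members' changes was not tested.

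In forestomach the members did not pass the test at any dose. Their mean per mouse lay within −2.06 to −1.57 on all 20 arrays, and the changes from vehicle had medians of −0.06, 0.05 and −0.02 within a range of −0.29 to 0.31. No member was a DEG by limma at the low, medium or high dose (0, 0 and 0.0996% of all genes), and none had an unadjusted p of at most 0.05 in these comparisons. The number of members above 0 was 15, 40 and 21 (49.8%, 49.8% and 49.7% of all genes), and median centring of the arrays turned it to 54, 52 and 52, so no direction is given. Spc25 was at −1.85, −2.01, −1.77, −2.04 and −1.81 in vehicle and at −1.62, −1.81, −2.15, −1.78 and −1.89 in high-dose forestomach. Mki67 was at −2.60, −2.53, −2.26, −2.62 and −2.23 in vehicle and at −2.17, −2.33, −2.80, −2.24 and −2.11 at the high dose. For both genes the groups overlapped.

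In liver the members were higher at the high dose by an amount that depended on the arrays used, and not higher with median centring of all 20 arrays. With all 20 arrays no member was a DEG by limma at any dose (0, 0 and 0.00538% of all genes), although the high-dose median was 1.24, 55 of 56 lay above 0 (53.4% of all genes), and 30 had an unadjusted p of at most 0.05 (8.03% of all genes), although the members varied closely together in liver. The member means on the third slide lay between −0.87 and −0.45 at every dose, so slide and dose moved together, with 1 vehicle and 3 high-dose arrays on it. With slide as a block, 6 members were DEGs higher at the high dose (Spc25, Birc5, Cdc20, Cdca3, Ccnb2 and Pttg1; 0.318% of all genes were DEGs), with a median of 0.51. Without the third slide 17 were (0.961% of all genes), with a median of 0.83, on high-dose mice 16 and 17 against vehicle mice 1 to 4. Mice 16 and 17 shared slide 2 with vehicle mice 1 and 2, whereas vehicle mice 3 and 4 were on slide 1, which held no high-dose array. With median centring of all 20 arrays the median was −0.10 (−0.12 for all genes) and 21 lay above 0 (40.9% of all genes). The member means then ran from −4.95 to −3.56 on the vehicle and from −4.96 to −2.11 on the high-dose arrays. Median centring was not run without the third slide or with slide as a block, so its median does not separate dose from slide.

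The liver values of single genes show where this rests. Spc25 was at −3.32, −3.35, −3.45, −2.36 and −1.35 in vehicle mice 1 to 5, with mouse 5 on the third slide, and at −1.30, 0.36, −0.48, 0.23 and −0.39 in high-dose mice 16 to 20, with mice 16 and 17 not on it. Every high-dose mouse lay above every vehicle mouse, and mouse 17 was highest. The change was 2.45 ± 0.52 (SE, adjusted p = 0.16) with all arrays, 1.89 ± 0.33 (0.0076) with slide as a block, and 2.65 ± 0.41 (0.0064) without the third slide. At the medium dose Spc25 was at −1.26, −1.57, −2.96, −2.56 and −1.06 in mice 11 to 15, of which mice 11 and 15 were on the third slide, so mouse 12 (−1.57) was the highest of the other medium-dose mice. Birc5 was at −5.64, −5.42, −5.32, −4.48 and −2.25 in vehicle and at −3.59, −1.18, −1.62, −0.99 and −1.40 in high-dose liver. Here mouse 5 lay above mouse 16, while mouse 16 lay above the other vehicle mice. The change was 2.87 ± 0.80 (0.39) with all arrays and 2.83 ± 0.52 (0.0156) without the third slide. Ccna2 was at −4.58, −4.32, −4.43, −3.73 and −1.38 in vehicle and at −3.34, −1.35, −1.21, −0.82 and −0.99 at the high dose, with mouse 16 again nearer the vehicle mice off the third slide than the other high-dose mice were. Within slide 2 the median change of the members between 2 high-dose and 2 vehicle mice was 0.93. Within slide 3 it was 0.32 between 3 high-dose mice and 1 vehicle mouse.

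The high-dose response of the members was compared between tissues with the difference itself as the test, and comparisons with lung use the vehicle lung arrays. Between lung and forestomach 1 member, Spc25, was a DEG (0.94 on the log2 scale, 0.92% of all genes), and it was lost with mouse as a block and without high-dose mouse 18 (adjusted p = 0.0576). Between lung and liver none was (0.39% of all genes), with a median of −1.10 and 26 members at an unadjusted p of at most 0.05 (10.8% of all genes), while 14 were DEGs without the third liver slide (1.3% of all genes) and the median turned to 0.39 under median centring. Between liver and forestomach none was (0.0377% of all genes), with 29 at an unadjusted p of at most 0.05 (7.23% of all genes), and 7 were without the third liver slide (0.207% of all genes).

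In vehicle mice the members lay lower in lung than in forestomach. In vehicle lung 43 of 56 members (76.8%) were DEGs lower than in vehicle forestomach (11.1% of all genes were DEGs lower), with a median of −1.02, and in 46 every lung lay below every forestomach (15.4% of all genes). Of the 43, 42 were above background on at least 1 vehicle array of both tissues, and the other, Kif2c, was above it on no vehicle lung array. Cdca8 (−2.23 ± 0.14, adjusted p = 6.6e-16), Spc25 (−2.18), Birc5 (−2.09), Cdc20 (−1.94) and Mki67 (−1.90) differed most, and Pttg1 (−0.12) and Smc4 (0.26) were not DEGs. Between vehicle liver and forestomach, with all arrays and loess, the share of DEGs among the members was near that of all genes or below it. In liver 7 members (12.5%) were lower (13.5% of all genes), among them Mki67 (−2.43) and Birc5 (−2.42), and 2 (3.57%) were higher (9.05%), of which Spc24 differed by 1.51 and Aurkb was above background on no array of either group, so that no difference is given for it. With median centring 11 of the 56 were lower and none higher (8.96% of all genes either way). Without the third liver slide 34 of the 56 were DEGs, 32 lower and 2 higher (26.4% of all genes either way). In both of these settings the share of the members lay above that of all genes. Between vehicle lung and liver 13 were lower in lung (10.9%) and 1, Smc4, a condensin subunit, was higher (1.15; 16.8%), but 4 of the 13 (Cdk1, Kif11, Ckap2 and Gtse1) were above background on no vehicle liver array and 2 more (Kif2c and Ckap2l) on no array of either group, which leaves 7. With median centring 7 were lower and none higher (11.7% of all genes either way), and without the third slide 17 were lower and 7 higher (30.8%). The comparisons with lung again share the vehicle lung arrays with the contrast that chose the genes.

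**Figure D5:**
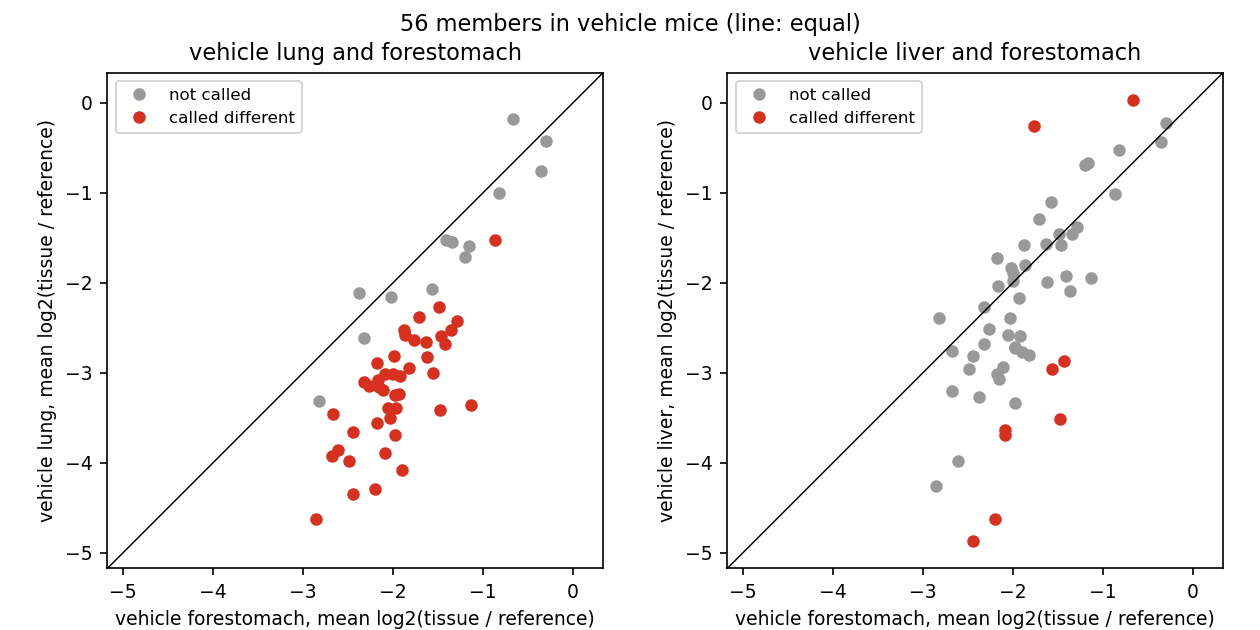
Log2 ratio of the members in vehicle lung (left) and vehicle liver (right) on the vertical axis against vehicle forestomach on the horizontal axis, with each point a member's mean over 5 mice, DEGs in red and the line marking equal values (the red point nearest 0 on the right is Aurkb, at background in both groups). Lung lies below forestomach with a median difference of −1.02 over the 56 members.

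Within dose groups the members varied together. After the dose means were removed, the correlation of each member with the mean of the others had a median of 0.81 over the 19 lung arrays, and 48 of 56 were above 0.5, against 2.87% of all genes with that mean. The highest was Birc5 (0.98) and the lowest Gtse1 (−0.12). In forestomach, over 20 arrays, the median was 0.60 and 37 of 56 were above 0.5 (2.40% of all genes). In liver the median was 0.98, with 28.1% of all genes above 0.5, and 0.91 with slide removed too (5.46% of all genes). The arrays of a tissue share slide, depth and labelling, and these values are a description. The genes outside the group that followed its mean most closely in lung were Cdca5 (0.97), Rrm2 (0.95), Shcbp1 (0.93), Tk1 (0.91), Trip13 (0.91), Asf1b (0.90), Cks1b (0.88) and 3 transcripts with no symbol. In forestomach they were Sgo1 (0.94), Shcbp1 (0.88), Aspm (0.87), Mad2l1 (0.85), Cks2 (0.85), Cdca5 (0.84), Kntc1 (0.83), Ccnf (0.81) and 2 probes with no symbol.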

How the data were processed

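The deposited scanner files of 59 two-colour arrays (lung 19, liver 20, forestomach 20) were used. Per the file headers, the authors extracted spot intensity with Feature Extraction 10.7.3.1, without dye swap. The deposited table of log2 values, processed by the authors with LOWESS, was used as an alternative. Groups came from the sample labels, and 1 sample's tissue from its title.

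Control and non-uniform spots were left out, and log2 ratios of median signals without background subtraction were normalized within arrays by loess. Spots of a probe were averaged (55681 probes). Probes were named through their accession in RefSeq (26413 probes, 20018 symbols), and others kept the file's name. Each tissue was fitted with 4 dose groups in limma 3.58.1 (R 4.3.3), with 2-sided moderated tests and Benjamini-Hochberg adjustment over all probes. DEGs had an adjusted p of at most 0.05 and a change of at least 1.5-fold. Pairs of tissues were fitted together for differences between them. These main fits had no term for the mouse or the slide. p-values measure the spread between mice, in liver together with that between slides, and the number of arrays limits the precision. The SD of the members' array medians within dose groups was 0.98 in liver, 0.19 in lung and 0.14 in forestomach. The scripts were tested on simulated data. Mouse numbers mark the same animal across tissues, and residuals of the same mouse correlated at −0.20 to 0.17.

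The members and lists were chosen with earlier results of these data known. Genes named are the NDC80 complex, 9 core genes, the 2 brightest of each role, the DEGs (the 5 of largest change where over 10) and the 10 closest in co-variation; others were named after their values were seen. Alternatives were median centring, normexp with an offset of 50, the deposited values, a filter on dim probes, any probe of a gene, kept non-uniform spots, slide or mouse as a block, leaving out the third liver slide and leaving out each mouse, and, added later, slide within tissue as a block.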

Additional observations from a re-analysis of the deposited data

Results flagged for a closer look

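Among 168 sets of 4 or 5 mice tested for a single distant value, 18 held one, where chance gives about 1 in 20. Vehicle mouse 5 stood above the other vehicle livers in Ndc80 (−0.48), Nuf2 (−0.48), Top2a (−1.04), Ccnb1 (−1.19), Ccna2 (−1.38), Foxm1 (−0.56), Mybl2 (−0.37) and the mean of all members (−0.87), and its array is the vehicle array on the third slide. High-dose mouse 16 stood below the other high-dose livers in Mki67 (−4.33), Cdk1 (−2.08), Ccnb1 (−3.14), Ccna2 (−3.34) and Birc5 (−3.59), and mouse 17 above them in Spc24 (1.00). In lung, medium-dose mouse 13 stood high in Ndc80 (−0.93) and medium-dose mouse 15 low in Cdk1 (−2.98). In forestomach, high-dose mouse 20 stood apart in Aurkb (0.097) and low-dose mouse 10 low in Birc5 (−2.59). The high-dose effect on Spc25 differed between lung and forestomach by 0.94 on the log2 scale in limma's test of the difference. That call was lost in 2 of 19 alternative settings, with an adjusted p of up to 0.0576 (without high-dose mouse 18). It uses the vehicle lung arrays of the contrast that chose the genes.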

How the results depend on the processing

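No called value reversed. Of the comparison counts recomputed under an alternative, 351 stayed within 1.5 times and 40 did not. In lung, DEGs among the members between high and medium dose numbered 2 with median centring and 7 without mouse 13, and 5 to 26 when each mouse was left out in turn. At the high dose they numbered 17 with median centring (8.16% of all genes), 1 without mouse 13 and 1 to 2 when each mouse was left out. In liver at the high dose there were 1 with the filter on dim probes, 6 with slide as a block (0.318% of all genes) and 17 without the third slide (0.961%). There were 0 to 1 when each mouse was left out. The liver trend gave 1 with the filter, 10 with slide as a block (0.363% of all genes) and 19 without the third slide (1.16%). It gave 0 to 1 when each mouse was left out. For the difference of high-dose effects, lung against liver gave 2 with slide within tissue as a block (1.6% of all genes) and 14 without the third slide (1.3%). It gave 0 to 1 when each mouse was left out. Lung against forestomach gave 0 with the mouse as a replicate block (0.985% of all genes) and 0 to 1 when each mouse was left out. Liver against forestomach gave 7 without the third slide (0.207% of all genes). Between vehicle tissues, lung against liver gave 7 with median centring (11.7% of all genes), 24 without the third slide (30.8%) and 7 to 12 when each mouse was left out. Liver against forestomach gave 34 without the third slide (26.4% of all genes) and 5 to 17 when each mouse was left out. The mouse block changed no other count by over 1.5 times. The cause of these differences was not tested. On the third liver slide 3 to 19 members were above background, which limits what liver can show.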
